A study of Mus musculus with 7 samples.

Results

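The genes described here encode the core of transforming growth factor beta (TGF-beta) signaling: the ligand *Tgfb1*, the receptors *Tgfbr1*, *Tgfbr2*, and *Tgfbr3*, the signal-carrying *Smad2* and *Smad3*, their partner *Smad4*, the inhibitor *Smad7*, and the nuclear brakes *Ski* and *Skil*. They were chosen by gene symbol, and all 10 were found among the 55367 genes of the counts. The 7 libraries were made from CD8+ T cells sorted from the spleens of Foxp3 YFP/cre mice and treated for 48 hours with small extracellular vesicles (sEVs) at 100 μg/mL. In 3 libraries the vesicles were LME-sEVs, from the leukemic spleens of Eμ-*TCL1* mice, in which a human *TCL1* transgene under an immunoglobulin enhancer drives a B-cell leukemia. In the other 4 they were HCME-sEVs, the counterpart from healthy spleens. Group sizes here follow the sample labels, and the study's legend for this comparison gives them the other way around. Cre in the recipient strain is driven by *Foxp3*, a gene of regulatory T cells that had at most 1 count per library here. The labels give 100 μg/mL for both groups, whereas the methods set the vesicle amount for cultured cells by what each kind of spleen contains. The study recovered more sEVs from leukemic spleens. Under the methods' rule, source and amount of vesicles could not be told apart in this comparison. They describe activating cultures for CD8+ T cells, on wells coated with anti-CD3 and with CD28 antibody and IL2 in the medium. Neither the labels nor the methods say whether the replicates were separate animals, so p-values measure only the spread between these libraries.

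TGF-beta is secreted in a latent form and, once released, binds the type II receptor TGFBR2, which recruits and phosphorylates the type I receptor TGFBR1. TGFBR1 phosphorylates SMAD2 and SMAD3, which join SMAD4 and enter the nucleus, while SMAD7 blocks the receptor and SKI and SKIL hold SMAD complexes in a repressed state. In CD8+ T cells the pathway is known for restraining effector cytokines and cytotoxic genes and for supporting tissue residence. Much of its control lies in protein phosphorylation, which RNA levels do not measure.

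Libraries held between 3689831 and 5030522 counts, each count a captured molecule at the 3′ end of a transcript, so that levels do not depend on gene length. Levels are given as CPM, the counts of a gene scaled to a common library total with factors from the trimmed mean of M values (TMM). Markers of CD8+ T cells were abundant, with a summed level of 2760 to 2860 CPM with HCME-sEVs and 2900 to 3210 CPM with LME-sEVs over 9 genes, and 2 of the 9 had an FDR under 0.05 in edgeR, both higher (*Cd3e*, 0.0106, and *Cd3g*, 0.0405). Of the 3 CD4+ T-cell markers, *Cd4* had at most 3 counts, and *Zbtb7b* was higher (log2 fold change 0.87, FDR = 0.0241, edgeR). *Zbtb7b* lost this call in 5 of 16 alternative settings. The sums of the 3 were 6.02 to 14.4 CPM and 15.3 to 17.3 CPM, of which *Zbtb7b* made up most (5.3 to 13.4 CPM and 13.9 to 15.9 CPM). The platelet and erythroid markers summed to between 74.9 and 183 CPM with HCME-sEVs and between 160 and 207 CPM with LME-sEVs over 10 genes, and 3 of the 8 tested had an FDR under 0.05, all higher (*Ppbp*, *Pf4*, and *Hba-a1*), none of which passed in DESeq2. Basophil and mast-cell markers summed to 8.91 to 37.0 CPM and 28.1 to 42 CPM, and 2 of the 6 tested were higher, *Prss34* (log2 fold change 1.72, FDR = 0.0153, edgeR) and *Mcpt8* (log2 fold change 1.43, FDR = 0.0341, edgeR), neither of which passed in DESeq2. These 2 rested on 0 to 41 and 3 to 71 counts per library. Of the 6, 5 had a positive log2 fold change and 1 a negative one (-0.26). Myeloid markers summed to 3.73 to 6.26 CPM and 7.56 to 12.4 CPM, without overlap. Of these 10 genes, 8 had too few counts to be tested and neither of the 2 tested passed. With no filter on low counts 1 of the 10 passed. B-cell markers summed to at most 20.2 CPM in any library. The part of these cell types in the results was not tested. In bulk RNA, fewer cells of a type and less RNA per cell cannot be told apart.

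None of the 10 genes passed the test between LME-sEVs and HCME-sEVs. The background was 8.96% of 12623 tested genes with an FDR under 0.05 (edgeR quasi-likelihood, Benjamini-Hochberg over that set). With LME-sEVs 3.75% were higher and 5.21% were lower, and 1.28% also changed by more than 1 on the log2 scale. The lowest FDR among the 10 was 0.117 (*Tgfbr2*) and the highest 0.935 (*Tgfb1*). At an unadjusted p under 0.05 stood 2 of the 10, *Tgfbr2* and *Smad3*, against 22.7% of all tested genes. In 0 of the 10 were the libraries of the groups separated, against 20.3% of all tested genes. The median log2 fold change of the 10, LME-sEVs over HCME-sEVs, was 0.03, and that of all tested genes was 0.01. The count with an FDR under 0.05 was also 0 in DESeq2 and limma-voom, and it was 1, *Tgfbr2*, with no filter on low counts, with the replicate number as a block, and without HCME-sEV library 3.

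The intervals bound how large a difference these libraries leave room for. For 9 of the 10 genes the 95% interval of the fold change lay within 1.5-fold in either direction, and for all 10 it lay within 2-fold. *Tgfbr2* was the exception to the narrower range, with an interval from 1.05-fold to 1.6-fold. Of all tested genes, 7050 of 12623 had an interval within 1.5-fold.

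**Figure D1:**
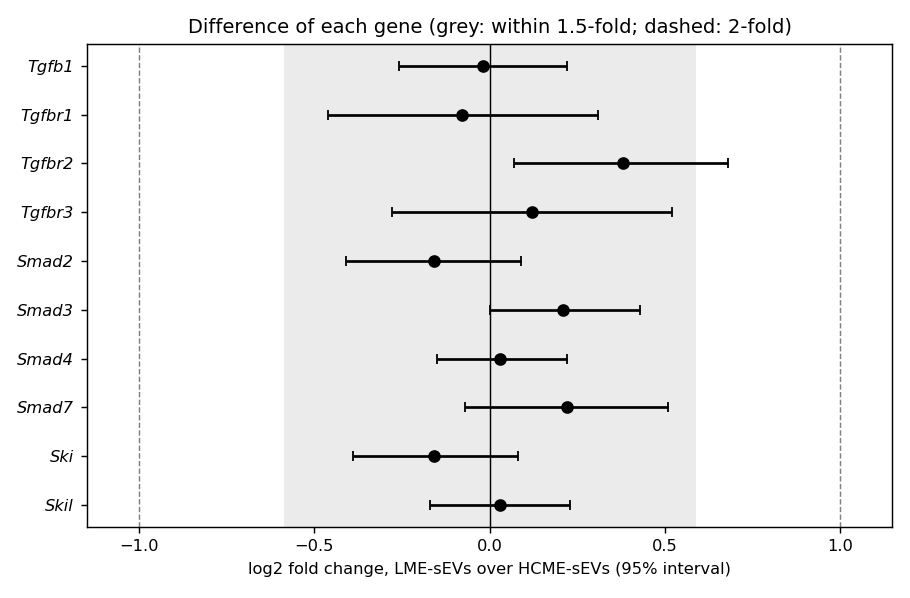
Log2 fold change of each of the 10 genes (points), LME-sEVs over HCME-sEVs, with 95% intervals from the edgeR fit (bars). The grey band marks 1.5-fold and the dashed lines 2-fold; *Tgfbr2*, from 0.07 to 0.68, is the single interval that leaves the band.

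The 10 genes were expressed at middle levels. Their means over the 7 libraries ran from 70.8 CPM for *Skil* to 9.96 CPM for *Tgfbr3*, which is from the 76.4th down to the 34.6th percentile of tested genes. *Skil* was followed by *Smad4* (62.8 CPM), *Smad3* (58.4 CPM), and *Smad2* (46.2 CPM), then by *Ski* (40.4 CPM), *Tgfb1* (39.7 CPM), and *Tgfbr2* (39.1 CPM). *Smad7* (24.6 CPM) and *Tgfbr1* (12.9 CPM) came before *Tgfbr3*. The ranges of neighbors in this order overlapped in every case but that of *Smad7* and *Tgfbr1*, and *Tgfbr2* was above *Smad7* in each of the 7 libraries.

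**Figure D2:**
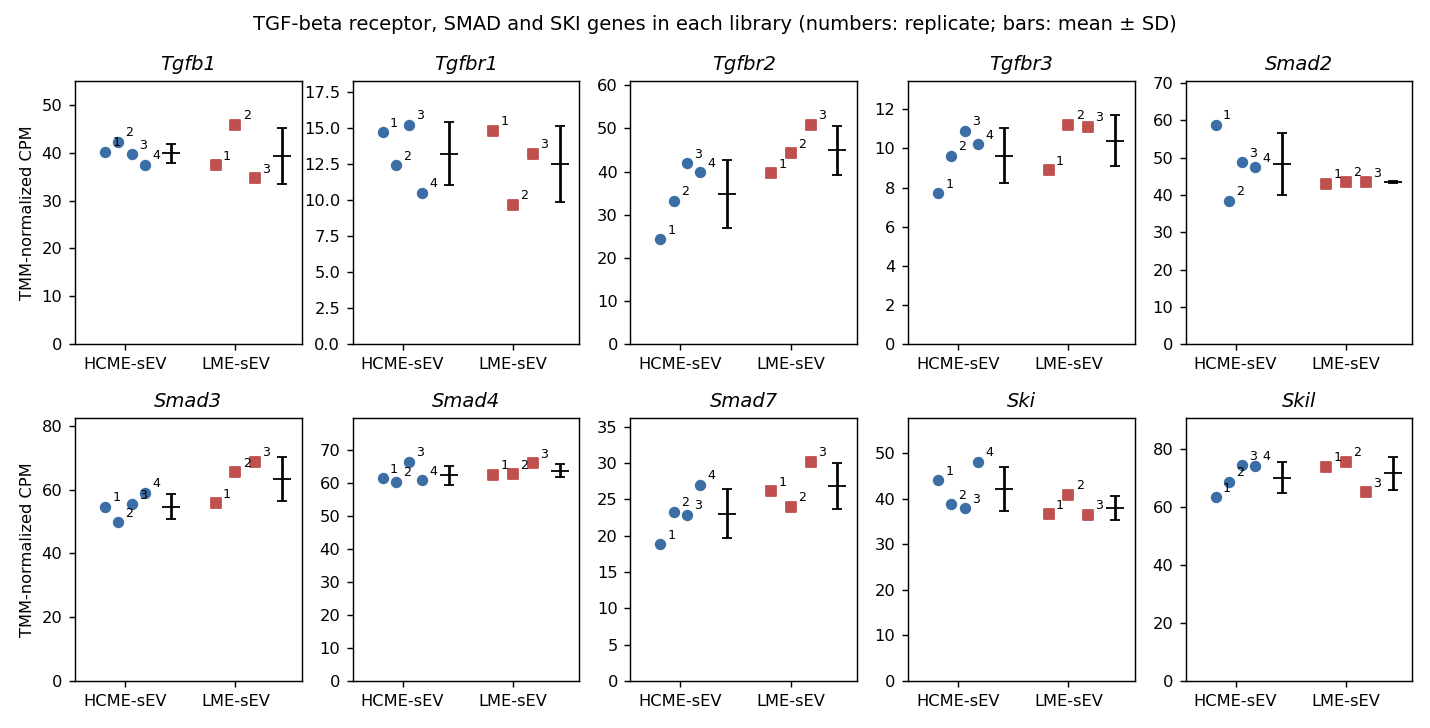
Level of each gene in every library (points, with the replicate number beside them) in TMM-normalized CPM on axes that start at 0, HCME-sEVs in blue (n = 4) and LME-sEVs in red (n = 3), with mean ± SD as black bars. In every panel the blue and red points share a range; *Tgfbr2* spans 24.3 to 50.8 CPM and *Smad4* only 60.3 to 66.4 CPM.

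*Tgfb1*, on chromosome 7 of GRCm38 (25687002 to 25705077, GENCODE vM21 as for all genes here), encodes the main TGF-beta ligand of lymphocytes. It had 40.2, 42.3, 39.7, and 37.5 CPM in HCME-sEV libraries 1 to 4 and 37.4, 45.8, and 34.7 CPM in LME-sEV libraries 1 to 3. The LME-sEV libraries held both the highest and the lowest value, so the groups overlapped fully. Means were 39.9 ± 1.99 CPM (SD, n = 4) and 39.3 ± 5.81 CPM (SD, n = 3), with a log2 fold change of -0.02 (standard error 0.115, 95% interval -0.26 to 0.22). Platelets carry much TGF-beta1. RNA of platelet markers, whose source was not tested, was detected in these libraries: *Pf4* ranged from 30.4 to 118 CPM and had a log2 fold change of 0.81 (FDR = 0.0331 in edgeR, 0.331 in DESeq2). The part of platelet RNA in the level of *Tgfb1* was not tested.

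*Tgfbr2*, which encodes the receptor that binds the ligand first, lies on chromosome 9 from 116084293 to 116175360. It had 24.3, 33.2, 41.9, and 39.8 CPM with HCME-sEVs and 39.6, 44.3, and 50.8 CPM with LME-sEVs. HCME-sEV library 1 was the lowest of all 7, and LME-sEV library 1 lay below HCME-sEV libraries 3 and 4. Means were 34.8 ± 7.90 CPM (SD, n = 4) and 44.9 ± 5.65 CPM (SD, n = 3), a log2 fold change of 0.38 (standard error 0.145, 95% interval 0.07 to 0.68) with an FDR of 0.117 in edgeR's quasi-likelihood test. On the CPM scale, 6 of the 35 ways to assign the libraries matched or exceeded this difference in means (two-sided exact permutation test, p = 0.171, where the smallest possible p is 0.0286). The log2 fold change was 0.24 (FDR = 0.271) without HCME-sEV library 1 and 0.27 (FDR = 0.415) without LME-sEV library 3, whereas without HCME-sEV library 3 it was 0.47 and the FDR fell to 0.0417. With no filter on low counts the FDR was 0.0366, at a log2 fold change of 0.39.

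The other receptors were less abundant. *Tgfbr1*, the kinase that acts on SMADs (chromosome 4, 47353222 to 47414931), ranged from 10.5 to 15.2 CPM with HCME-sEVs and from 9.66 to 14.8 CPM with LME-sEVs. Its log2 fold change was -0.08 (standard error 0.187, 95% interval -0.46 to 0.31), and it rested on 43 to 68 counts per library. *Tgfbr3*, the coreceptor betaglycan that presents ligand (chromosome 5, 107106570 to 107289629), ranged from 7.71 to 10.9 CPM and from 8.88 to 11.2 CPM, with a log2 fold change of 0.12 (standard error 0.191, 95% interval -0.28 to 0.52) on 32 to 57 counts. These were the widest intervals of the 10. An unspliced gene model, *Gm43422*, overlaps an exon of *Tgfbr3* on the same strand and had at most 1 count.

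Among the receptor-activated SMADs the 2 genes had log2 fold changes of opposite sign, neither of which passed the test. *Smad3* (chromosome 9, 63646767 to 63757994) had 54.7, 49.7, 55.5, and 59.1 CPM with HCME-sEVs and 55.7, 65.4, and 68.8 CPM with LME-sEVs. LME-sEV libraries 2 and 3 were above every HCME-sEV library, and LME-sEV library 1 was inside their range. The log2 fold change was 0.21 (standard error 0.101, 95% interval 0.00 to 0.43, FDR = 0.210 in edgeR). On the CPM scale, 4 of the 35 assignments matched or exceeded the difference in means (exact permutation p = 0.114). *Smad2* (chromosome 18, 76241580 to 76310963) had 58.8, 38.5, 48.8, and 47.5 CPM with HCME-sEVs and 43.0, 43.6, and 43.4 CPM with LME-sEVs. The LME-sEV libraries lay within 1 CPM of each other and inside the range of the HCME-sEV libraries, which differed among themselves by 5.75 times the variance that counting alone gives. The LME-sEV libraries differed by only 0.0073 times that variance, which is less than counting alone gives. The contrast in spread between the groups was not tested. The log2 fold change of *Smad2* was -0.16 (standard error 0.120, 95% interval -0.41 to 0.09, FDR = 0.472, edgeR).

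The ratio of 2 genes within a library does not depend on scaling, and 3 ratios were computed, chosen after the values had been seen. Counts of *Smad3* per count of *Smad2* were 0.93, 1.29, 1.14, and 1.25 with HCME-sEVs and 1.29, 1.5, and 1.58 with LME-sEVs. Every LME-sEV library was above every HCME-sEV library, the nearest pair by less than the rounding shown, and 2 of 35 assignments matched or exceeded the difference (exact permutation p = 0.0571; 0.171 after Benjamini-Hochberg adjustment over the 3 ratios). Counts of *Tgfbr2* per count of *Tgfbr1* ran from 1.66 to 4.58, and those of *Skil* per count of *Ski* from 1.44 to 2.02. In both of these the groups overlapped (exact permutation p = 0.229 each, 0.229 adjusted).

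*Smad4*, the shared partner of the receptor-activated SMADs (chromosome 18, 73639009 to 73703780), varied least. It ranged from 60.3 to 66.4 CPM with HCME-sEVs and from 62.4 to 65.9 CPM with LME-sEVs, with a log2 fold change of 0.03 (standard error 0.0904, 95% interval -0.15 to 0.22). *Smad7*, the inhibitory SMAD that TGF-beta itself induces (chromosome 18, 75367529 to 75395935), had 18.8, 23.3, 22.9, and 27.0 CPM with HCME-sEVs and 26.1, 24, and 30.2 CPM with LME-sEVs. HCME-sEV library 4 stood above 2 of the 3 LME-sEV libraries. The log2 fold change was 0.22 (standard error 0.139, 95% interval -0.07 to 0.51, FDR = 0.365, edgeR).

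*Ski* (chromosome 4, 155154075 to 155222592) and *Skil* (chromosome 3, 31095058 to 31122577) encode related proteins that recruit corepressors to SMAD complexes. *Ski* ranged from 37.9 to 48.2 CPM with HCME-sEVs and from 36.5 to 40.9 CPM with LME-sEVs, with a log2 fold change of -0.16 (standard error 0.113, 95% interval -0.39 to 0.08, FDR = 0.454, edgeR). *Skil* ranged from 63.4 to 74.4 CPM and from 65.1 to 75.7 CPM, with a log2 fold change of 0.03 (standard error 0.0956, 95% interval -0.17 to 0.23). *Skil* is, like *Smad7*, a gene that TGF-beta induces, and the groups overlapped for both.

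MicroRNA miR-155 was assayed in the vesicles by the study and blocked there with an inhibitor. Its letters are shown with the matches found in the 3′ untranslated regions of the 10 genes. Capitals mark bases 2 to 8, the seed that pairs with targets, in the RefSeq sequence on GRCm38.p6 (chromosome 16, plus strand):
mmu-miR-155-5p: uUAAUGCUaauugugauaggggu
The sense strand of every GENCODE vM21 3′ untranslated region was searched for AGCATTA, the complement of that seed. A match was found in 2 of the 10 genes, 1 each in *Smad3* and *Ski*, and in 10.3% of the 10788 tested genes with such a region. Each match is shown in capitals, on the minus strand of GRCm38, for *Smad3* at chr9:63647176-63647198 and for *Ski* at chr4:155156458-155156480:
Smad3: ggctcaagatccacaAGCATTAg
Ski: gcattggaacaaaacAGCATTAc
The log2 fold changes of these genes were 0.21 and -0.16, of opposite sign, and neither passed the test. A match describes letters and not a site that is used.

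Beyond the 10 genes, 85 others of the pathway were listed, from ligands to SMAD-independent kinases, and 66 had enough counts to be tested. An FDR under 0.05 was reached by 3 of the 66, 2 higher and 1 lower with LME-sEVs, where 8.96% of all tested genes passed. *Lrrc32*, which encodes GARP, the protein that docks latent TGF-beta on the cell surface, was lower: 20.7, 12.4, 12.8, and 17.7 CPM with HCME-sEVs against 11.6, 11.5, and 6.40 CPM with LME-sEVs. No LME-sEV library reached the lowest HCME-sEV library, and the log2 fold change was -0.73 (standard error 0.222, FDR = 0.0439, edgeR). *Zfyve16*, which encodes the endosomal protein endofin, was higher, with a mean of 7.92 ± 0.817 CPM (SD, n = 4) for HCME-sEVs and of 12.3 ± 0.617 CPM (SD, n = 3) for LME-sEVs (log2 fold change 0.63, standard error 0.182, FDR = 0.0331, edgeR). *Usp11*, a deubiquitinase that acts on TGF-beta receptors, was also higher, at 13.0 ± 2.19 CPM (SD, n = 4) for HCME-sEVs against 19.1 ± 2.69 CPM (SD, n = 3) for LME-sEVs (log2 fold change 0.55, standard error 0.165, FDR = 0.0398, edgeR). For *Zfyve16* and *Usp11* every LME-sEV library was above every HCME-sEV library.

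These calls lay close to the threshold. In DESeq2 0 of the 66 had an FDR under 0.05, and 15 of the 66 had an unadjusted p under 0.05 in edgeR, where 22.7% of all tested genes did. Without LME-sEV library 2 or LME-sEV library 3 the count was 0, and without LME-sEV library 1 it was 1. *Lrrc32* lost the call without HCME-sEV library 1 or 4 or any LME-sEV library, with an edgeR FDR of 0.0516 to 0.271 and, without LME-sEV library 3, a log2 fold change of -0.47. It also lost the call with upper-quartile scaling (FDR = 0.0513, edgeR) and with scaling by library size alone (FDR = 0.0581, edgeR). *Zfyve16* lost it without HCME-sEV library 3 or 4 or any LME-sEV library (FDR = 0.0608 to 0.114, edgeR) and with the replicate number as a block (FDR = 0.0541, edgeR), and *Usp11* without HCME-sEV library 2 or 3 or LME-sEV library 2 or 3 (FDR = 0.0539 to 0.213, edgeR).

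By role, the call among the 9 tested ligand and latency genes was *Lrrc32*, that among the 6 tested SMADs and anchors was *Zfyve16*, and that among the 15 ubiquitin enzymes and phosphatases was *Usp11*. No call was made among 8 other tested receptors of the TGF-beta superfamily, 16 tested SMAD coregulators, or 12 genes of SMAD-independent signaling such as *Map3k7*. In these lists 1, 2, and 5 genes had an unadjusted p under 0.05 in edgeR (22.7% of all tested genes did), and DESeq2 gave 0 calls in each. The other TGF-beta ligands were barely present, with 2 to 9 counts per library for *Tgfb2* and at most 1 for *Tgfb3*.

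**Figure D3:**
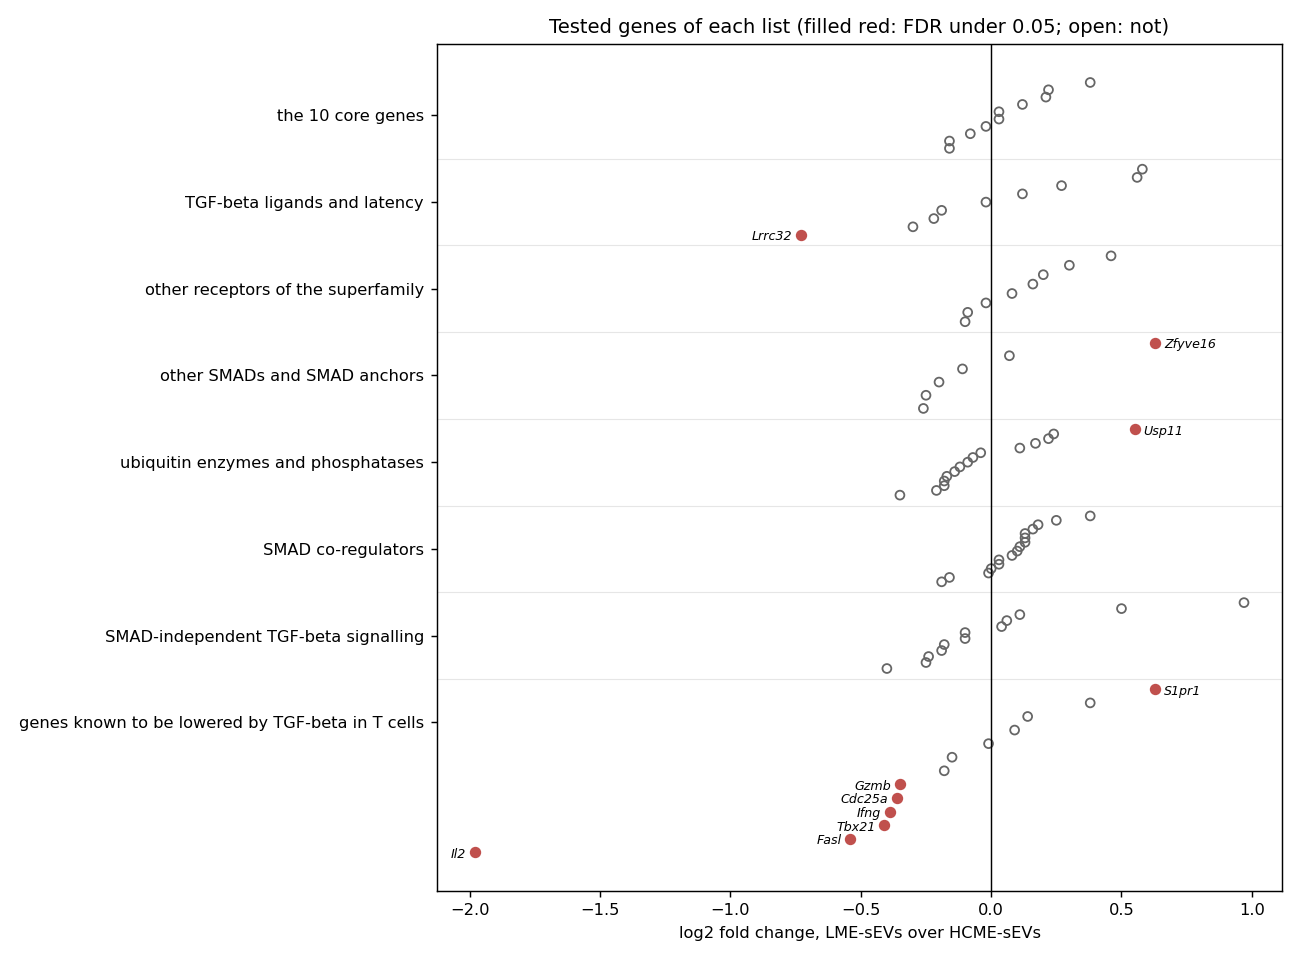
Log2 fold change, LME-sEVs over HCME-sEVs, of every tested gene in each list shown (points), the induced genes left out; filled red points with a name had an FDR under 0.05 in edgeR and open points did not. The 10 genes in the top row sit between -0.16 and 0.38 with no filled point.

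Genes that TGF-beta is known to act on were described from lists written with earlier results of these data known, and they include genes under many other controls. Among genes known to be induced, *Smad7* and *Skil* are given above. *Itgae*, which encodes the residence integrin CD103, had a log2 fold change of 0.17 (95% interval -0.19 to 0.53), and *Pmepa1*, a feedback inhibitor, one of -0.17 (95% interval -0.35 to 0.01). The libraries of the groups overlapped for *Itgae* and did not for *Pmepa1*, whose FDR was 0.262 (edgeR). No count is given for the induced genes, since not all of them are reported here.

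Of 13 tested genes that TGF-beta is known to lower in T cells, 6 were lower and 1 higher with LME-sEVs, and 6 did not pass the test; of all tested genes 5.21% were lower and 3.75% higher. *Tbx21*, the effector transcription factor T-bet, fell by 0.41 on the log2 scale (standard error 0.0949, FDR = 0.0100, edgeR), and *Fasl*, the death ligand, by 0.54 (standard error 0.129, FDR = 0.0119, edgeR). The others that fell were *Il2*, *Cdc25a*, *Ifng*, and *Gzmb*, with log2 fold changes of -1.98, -0.36, -0.39, and -0.35. *Il2* rested on only 2 to 27 counts per library, with 1.61, 0.449, and 2.13 CPM in the LME-sEV libraries. It was not tested under the filter of at least 5 counts in every library. At least 1 stretch of 50 bases near the 3′ end of an *Il2* transcript also occurs in a transcript of *Ntan1*. The same holds for *Ifng* and the gene model *Gm49751*, which had at most 4 counts. The counts of *Il2* and *Ifng* are uncertain to that extent. *S1pr1*, the receptor for lymphoid egress, went the other way with a log2 fold change of 0.63 (standard error 0.151, FDR = 0.0124, edgeR). The median log2 fold change of the list was -0.18, against 0.01 over all tested genes. Because the list was written with earlier results of these data known, this contrast is a description only. Action of TGF-beta on these genes was not tested. Without LME-sEV library 2 only *Il2* had an FDR under 0.05; *Fasl* and *S1pr1* also lost the call without LME-sEV library 3 (FDR = 0.0638 and 0.0747, edgeR), as did *Ifng* and *Gzmb* without LME-sEV library 1 (FDR = 0.177 each, edgeR) or without HCME-sEV library 2 or 3 (FDR from 0.0526 to 0.132, edgeR).

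The genes whose pattern over the 7 libraries was nearest to that of *Tgfbr2*, by the root-mean-square difference of centered log2 CPM among 7848 genes, were *Igf2r* (0.0535), *Ets1* (0.0710), and *Hivep1* (0.0729), where the median gene differed by 0.349. *Ets1*, a lymphoid transcription factor, had 140, 177, 213, and 203 CPM with HCME-sEVs and 221, 251, and 258 CPM with LME-sEVs. In *Ets1* the groups did not overlap, with a log2 fold change of 0.41 (standard error 0.108, FDR = 0.0212, edgeR). Its edgeR FDR was 0.0648 to 0.115 without HCME-sEV library 2 or LME-sEV library 2 or 3. Of all tested genes, 20.3% did not overlap and 8.96% had an FDR under 0.05. These genes were picked for likeness to *Tgfbr2* over the same libraries, so their group differences follow in part from that choice. *Igf2r*, which encodes a receptor able to bind latent TGF-beta, had a log2 fold change of 0.38 (standard error 0.125, FDR = 0.0639, edgeR). HCME-sEV library 1 was the lowest of the 7 in *Tgfbr2* and in *Igf2r*, *Ets1*, and *Hivep1*, and it was also lowest in *S1pr1*, *Cd3g* (55.7 CPM), and *Pf4* (30.4 CPM). It was lowest too in *Tgfbr3* (7.71 CPM), *Smad7* (18.8 CPM), and *Skil* (63.4 CPM), and highest in *Smad2* (58.8 CPM). How often it was lowest over all tested genes was not counted. The part of this library in the likeness of *Tgfbr2* to its nearest genes was not tested. Among the genes nearest to *Smad3* were *Itgal* (0.0450) and *Letmd1* (0.0455), where the median gene differed by 0.211.

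**Figure D4:**
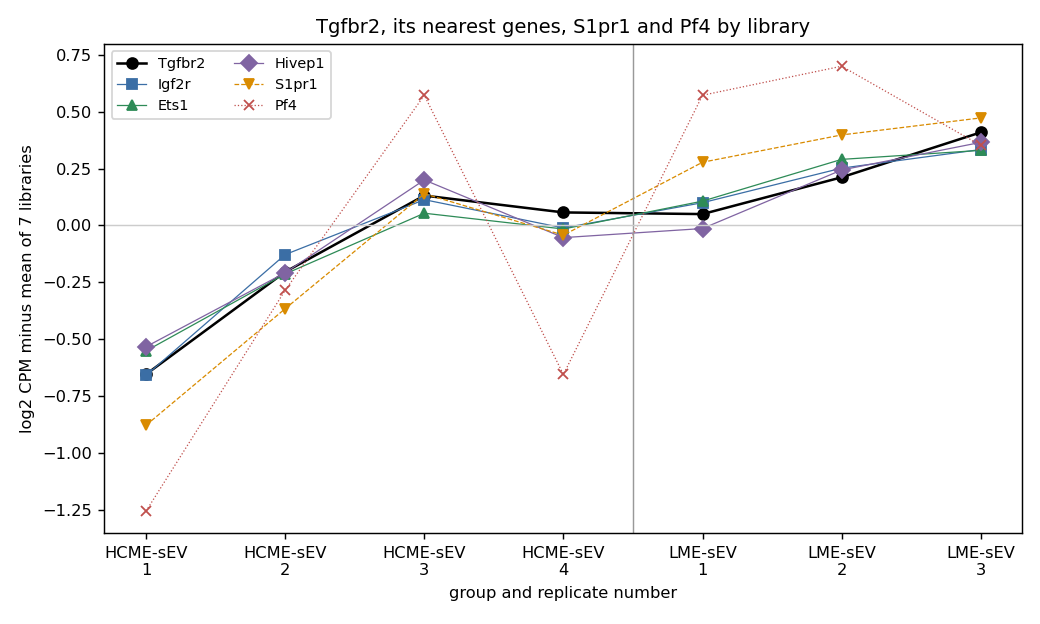
Log2 CPM minus the mean of the 7 libraries for *Tgfbr2* (black), *Igf2r*, *Ets1*, *Hivep1*, *S1pr1*, and *Pf4*, by library; lines join the points of a gene and replicates have no order. HCME-sEV library 1 is the lowest point for all 6 genes, of which *Igf2r*, *Ets1*, and *Hivep1* were picked for likeness to *Tgfbr2*. *Pf4* departs from *Tgfbr2* in HCME-sEV libraries 3 and 4.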

How the data were processed

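Counts per gene for 7 libraries were used as deposited. The authors trimmed reads with cutadapt 2.10, mapped them to GRCm38 with STAR 2.5.3a, collapsed them by molecular identifier with UMI-tools 1.0.0, and assigned them to genes using Subread 2.0.0 (featureCounts). The annotation release and strand setting are not given in the sources used here. Totals of 3689831 to 5030522 counts mean that 3 counts correspond to 0.596 to 0.813 CPM, and intervals cover the spread between libraries, not capture bias.

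Genes averaging 5 or more counts per library were tested in R 4.3.3 with edgeR 4.0.16 (TMM, factors 0.965 to 1.03; glmQLFit and glmQLFTest; no covariate), with Benjamini-Hochberg adjustment over 12623 genes. The test was first tested on simulated data. It called 52% of 100 genes with a simulated log2 change of 0.5 and 90% of 100 genes with one of 1.5. Of 12423 unchanged genes it called 3. Changes of 0.5 or less can thus be missed. Single levels were compared by two-sided exact permutation over 35 assignments of libraries. Alternatives were other normalizations and filters, DESeq2 1.42.0, limma-voom (limma 3.58.1), the replicate number as a block, and leaving out each library. Shared 3′ ends were words of 50 bases in the last 300 bases of GENCODE vM21 transcripts.

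The genes and lists were chosen with earlier results of these data known. Text names the 10 genes, up to 4 called genes per list with the lowest p, and the 3 genes nearest to each of the 2 genes with the lowest p among those with a mean of at least 50 counts; *S1pr1*, *Gzmb*, *Ifng*, *Pmepa1*, *Itgae*, *Tgfb2*, and *Tgfb3* were named after their values were seen. The mature sequences of miR-150-5p and miR-378a-5p were not used here. Some results on genes induced by TGF-beta and on genes near *Smad3* are not reported here.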

Additional observations from a re-analysis of the deposited data

How the results depend on the processing

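Of 160 combinations of the 10 genes with 16 alternatives, 157 kept the side of the threshold and 3 moved *Tgfbr2* to an FDR under 0.05; 6 changed the sign of a log2 fold change near 0, in *Tgfb1*, *Tgfbr1*, and *Skil*. The number of the 10 genes with an FDR under 0.05 was thus 1 with no filter, 1 with the replicate block, and 0 or 1 with a library left out. The number of other pathway genes was 0 with DESeq2, 6 with the replicate block (under which *Zfyve16* lost its call), and 0 to 3 with a library left out. Over all genes, 391 to 1305 had an FDR under 0.05 with a library left out (1131 with all; 723 without HCME-sEV library 2, 391 without LME-sEV library 2, 458 without LME-sEV library 3), and 83 to 184 also had a log2 fold change beyond 1 (162 with all; 105 with DESeq2; 83 without LME-sEV library 2, 90 without LME-sEV library 3). Libraries with the same number deviated together with correlations of 0.0721, 0.155, and 0.0268. Those with different numbers had correlations from -0.206 to 0.0803, the highest for HCME-sEV library 3 and LME-sEV library 1. These values leave pairing by number undecided, and the main test did not use it. The block raised all calls to 1454 and gave *Tgfbr2* a log2 fold change of 0.45 (FDR = 0.0122, edgeR). Dropping TMM scaling moved the median of all genes from 0.01 to 0.055. Among the 4 HCME-sEV libraries, 0 of 36 genes passed Dixon's test for an outlying library (1.8 expected by chance). That test takes 1 gene and 4 values at a time, so it cannot exclude a library that departs modestly in many genes. Over tested genes with enough counts, variation between 2 libraries relative to counting noise was 4.54 to 6.66 in pairs with HCME-sEV library 1. It was 2.19 to 3.96 in the other HCME-sEV pairs and 2.64 to 2.75 in LME-sEV pairs. At 32 to 68 counts per library, *Tgfbr1* and *Tgfbr3* carried the least precise values.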
